A study of Mus musculus with 20 samples.

Results

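The transcripts described here encode p53, its close relatives and regulators, and the kinases that signal DNA damage to it. They are 9 mouse genes taken by name: *Trp53*, *Trp73*, *Mdm4*, *Ppm1d*, *Atm*, *Atr*, *Chek1*, *Chek2* and *Prkdc*. Every array probe whose RefSeq accession belongs to one of these symbols, or to an older synonym, was taken. This gave 14 probes for 8 of the 9 genes, out of 16535 genes with a symbol on the array. No probe was matched to *Atr*, which is not analysed here. All animals were male Muta™Mouse mice (a transgenic strain that carries a bacterial *lacZ* reporter), aged 25 weeks and housed singly. The control group received olive oil, and the 3 exposed groups received benzo(a)pyrene (BaP), a polycyclic aromatic hydrocarbon whose metabolites bind DNA, in olive oil at 25, 50 or 75 mg/kg/day. Dosing was by daily oral gavage over several weeks, and livers were collected 3 days after the last dose from 5 animals per group. Whole liver RNA was used, so fewer cells of a type and less RNA per cell cannot be told apart. Each liver RNA was labeled with Cyanine 5 and hybridized with a Cyanine 3-labeled universal mouse reference RNA, a commercial pool from cell lines, and values are log2 ratios of liver over reference. A ratio below 0 means less signal in liver than in the reference pool, and the ratio of one probe cannot be set against that of another.

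In undamaged cells p53 is made continuously and destroyed rapidly, because the ubiquitin ligase Mdm2 and its partner Mdm4 bind it. The kinases Atm (double-strand breaks), Atr (single-stranded DNA at stalled forks) and DNA-PK, of which Prkdc is the catalytic subunit, phosphorylate p53 and its regulators after damage, in part through the checkpoint kinases Chek1 and Chek2. p53 then accumulates as protein and switches on target genes such as *Cdkn1a*. The phosphatase Ppm1d (Wip1), itself a p53 target, removes these phosphates and closes the response. Much of this control acts on proteins, and the arrays measured only mRNA.

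The start regions of these genes differ in the short words they hold, and 4 stretches are shown as examples of 3 such words. RefSeq windows on GRCm38.p6 that span each start site were matched by symbol for 8 of the 9 genes (10 windows, *Atr* included). The words were searched on both strands and were chosen after the windows had been read. Capitals mark the word found.
Ppm1d, chr11:85311161-85311184, + strand: gagccgagTGACGTCAtcaggaga
Chek2, chr5:110839823-110839845, + strand: gattagccGCGGGAAaccaagac
Trp73, chr4:154139964-154139986, - strand: gcgctgccTTCCCGCcggtccgc
Trp53, chr11:69580343-69580363, + strand: ttgctgggATTGGgactttcc
The cAMP response element TGACGTCA was found in 1 member, *Ppm1d*, and in 1.79% of all 32851 windows. The E2F-like word TTCCCGC, or its reverse complement GCGGGAA, was found in *Trp73*, *Chek2*, *Chek1* and *Atm* and in 4.6% of all windows. CCAAT was found in *Chek2*, *Atm*, *Trp53* and *Ppm1d* (37.4% of all windows), and the GC box GGGCGG in *Trp73*, *Atm*, *Atr* and *Ppm1d* (35.7%). The only matches that overlapped each other were a pair of GC boxes in *Ppm1d*. A match is a description of the letters and not a measured binding site.

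Liver appears in one label of each sample and lungs in another, and by their markers the arrays carried liver RNA. All 7 hepatocyte markers on the array were detected, with a median signal 876 times the local background, against 1.28 times for the lung epithelium markers, of which 4 of 6 were detected. The liver channel had signals well above background on 51.9 to 67.5% of spots, most often on the array of control replicate 4. The arrays lay on 6 slides. Slides 1 to 3 held 1 array of each group, slides 4 and 5 held arrays of the 25 and 75 mg/kg/day groups, and slide 6 held control and 50 mg/kg/day arrays, so results are also given within slides. The number of arrays limits the precision.

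The p53 machinery transcripts did not pass the threshold at any dose. Calls required both a limma p under 0.05 after Benjamini-Hochberg adjustment and a change of more than 1.5-fold. Among the 13 member probes detected above the negative controls (27202 probes on the whole array), 0 were called at 25 mg/kg/day, where 0% of all detected probes were called. At 50 mg/kg/day 0 of the 13 were called, again against 0% of all probes. At 75 mg/kg/day 0 of the 13 were called, against 0.136% of all probes. At an unadjusted limma p under 0.05 the member counts were 1, 1 and 3 of 13 at 25, 50 and 75 mg/kg/day, where 7.81%, 6.7% and 11.2% of all detected probes met that limit. The smallest adjusted p of a member was 0.635 at 25, 0.726 at 50 and 0.249 at 75 mg/kg/day.

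These differences were small as well as uncalled in the main processing. The median log2 difference from control over the 13 probes was 0.06, 0.1 and 0 at the 3 doses, and 0 over all detected probes at each dose. The median size, without sign, was 0.14, 0.097 and 0.11 for the members and 0.11, 0.11 and 0.12 for all detected probes. At 50 mg/kg/day the 95% interval of each of the 13 probes lay within a 1.5-fold change either way. At 25 and at 75 mg/kg/day this held for 12 of 13, and the exception was the same *Trp53* probe. With the scanner software's processed signals, *Chek1* (A_51_P326499) differed by 0.862 at 25 and 0.679 at 75 mg/kg/day. *Mdm4* (A_52_P174937) then differed by 0.702 at 75 mg/kg/day, and each of these was over 1.5-fold but uncalled. These probes were close to background in liver, well above it on 8 and 6 of 20 arrays.

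**Figure D1:**
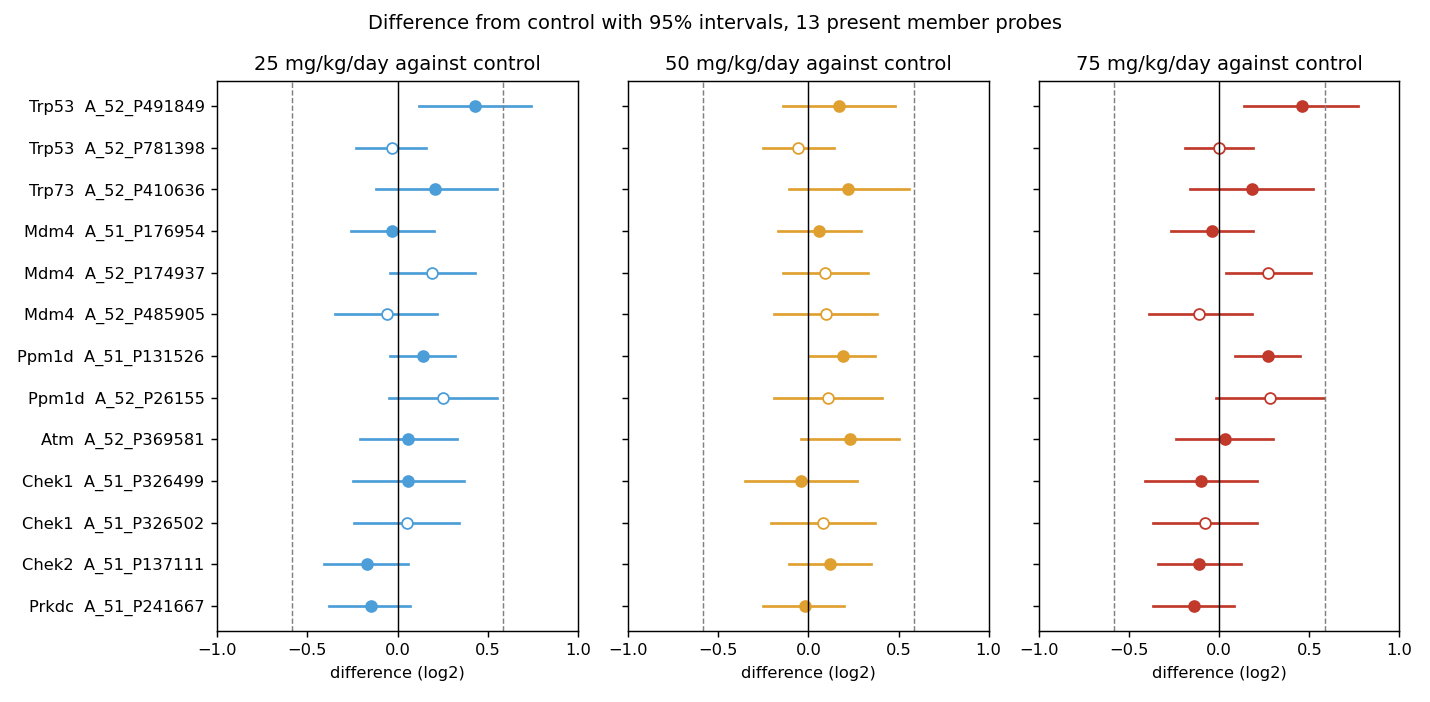
Difference from control on the log2 scale at each dose (x axis) for the 13 detected probes of 8 genes (y axis). Points are limma estimates with 95% intervals, filled for the probe that represents a gene, and dashed lines mark a 1.5-fold change. The upper *Trp53* probe reached 0.46 at 75 mg/kg/day and was the one probe whose interval crossed a dashed line.

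*Trp53*, which encodes p53 itself, was measured by 2 probes. The brighter over both channels, A_52_P491849, is printed in 10 spots per array, and the median SD between its spots on an array was 0.0981 on the log2 scale. Its log2 ratios in control replicates 1 to 5 were -0.76, -1.18, -0.59, -1.28 and -1.4, and at 25 mg/kg/day (replicates 6 to 10) they were -0.7, -0.44, -0.74, -0.67 and -0.53. At 50 mg/kg/day (replicates 11 to 15) they were -0.76, -0.64, -1.14, -1.14 and -0.69, and at 75 mg/kg/day (replicates 16 to 20) -0.53, -0.72, -0.72, -0.7 and -0.26. Control replicates 2, 4 and 5 lay below every array of all 3 exposed groups, whereas control replicates 1 and 3 lay among the exposed arrays, so the groups overlapped. The means were -1.04 ± 0.35 in controls, -0.61 ± 0.13 at 25, -0.88 ± 0.25 at 50 and -0.59 ± 0.2 at 75 mg/kg/day (SD, n = 5 each). The difference from control was 0.43 (95% interval 0.12 to 0.74) at 25, 0.17 (-0.14 to 0.48) at 50 and 0.46 (0.14 to 0.77) at 75 mg/kg/day, with limma adjusted p of 0.635, 0.863 and 0.265. The middle dose had the smallest difference of the 3. When the liver channel was used alone, without the reference, these differences became 0.069, -0.108 and 0.099, and the last had an unadjusted p of 0.403 and an adjusted p of 0.898 in limma.

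The other *Trp53* probe, A_52_P781398, had differences of at most 0.06 in size (-0.03, -0.06 and 0 at 25, 50 and 75 mg/kg/day). Its log2 ratios were 0.14, 0.41, 0.19, 0.37 and 0.41 in control replicates 1 to 5 and 0.2, 0.15, 0.32, 0.38 and 0.29 at 25 mg/kg/day. They were 0.21, 0.34, 0.21, 0.31 and 0.17 at 50 mg/kg/day and 0.29, 0.57, 0.38, 0.16 and 0.12 at 75 mg/kg/day, so the 4 groups covered one another. The difference at 75 mg/kg/day was 0 with a 95% interval of -0.19 to 0.19 (limma adjusted p = 0.997). When the liver channel was used alone, this probe differed by -0.274 at 25 mg/kg/day (unadjusted p of 0.0485, adjusted p of 0.919 in limma). At 50 mg/kg/day that setting gave -0.104, and the lowest value of any alternative setting at 75 mg/kg/day was -0.236. The changes of the 2 *Trp53* probes at 75 mg/kg/day differed by 0.46, which an exact two-sided permutation test of the per-array differences did not separate (p = 0.103, 0.258 after adjustment over 5 pairs of probes of the same gene). That test took no account of slide, and on each of slides 1 to 3 the brighter probe differed from control at 75 mg/kg/day by more than the other (0.55 against 0.2, 0.68 against -0.04 and 0.23 against 0.14). The other 4 pairs, in *Mdm4*, *Ppm1d* and *Chek1*, had exact permutation p between 0.0873 and 0.968. Which part of the *Trp53* transcript each probe detects is not given in the sources used here.

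*Trp73* encodes p73, a relative of p53 that binds similar DNA sites. Its probe gave log2 ratios of 1.75, 1.66, 1.43, 1.26 and 1.19 in control replicates 1 to 5 and of 1.11, 1.59, 1.94, 1.95 and 1.77 at 25 mg/kg/day. The next dose, 50 mg/kg/day, gave 1.41, 1.58, 1.79, 1.57 and 2.05, and the highest dose gave 1.56, 1.97, 1.7, 1.47 and 1.48. Control replicates 4 and 5 were among the lowest of the 20 arrays, together with replicate 6 of the 25 mg/kg/day group, and the groups overlapped. The differences from control were 0.21 (95% interval -0.12 to 0.55), 0.22 (-0.11 to 0.56) and 0.18 (-0.16 to 0.52) at 25, 50 and 75 mg/kg/day, and limma adjusted p was at least 0.715.

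*Mdm4* encodes the partner of Mdm2 that holds p53 inactive, and was measured by 3 probes whose estimates differed in sign at 75 mg/kg/day. The brightest, A_51_P176954, had log2 ratios of 0.16, -0.35, 0.02, -0.08 and 0.24 in controls and of -0.24, -0.04, 0.06, 0.1 and -0.02 at 25 mg/kg/day. The values were -0.07, -0.01, 0.27, 0.03 and 0.07 at 50 mg/kg/day and -0.04, 0.04, 0.16, -0.14 and -0.22 at 75 mg/kg/day. Both the lowest array and one of the 2 highest were controls, and the difference at 75 mg/kg/day was -0.04 (95% interval -0.27 to 0.19, limma adjusted p = 0.93). A_52_P485905 ranged from -0.66 to 0.02 in controls and from -0.67 to -0.1 at 75 mg/kg/day, a difference of -0.11 (-0.39 to 0.18). A_52_P174937 ranged from -0.53 to 0 in controls and from -0.07 to 0.32 at 75 mg/kg/day, a difference of 0.27 (0.04 to 0.51) with an unadjusted p of 0.0262 and an adjusted p of 0.372 in limma. That probe was not well above background on any control array and on 2 of 5 arrays at 75 mg/kg/day, so its level in liver was mostly only bounded from above. The difference at 75 mg/kg/day was 0.189 with slide as a fixed block and 0.702 with processed signals (limma adjusted p of 0.522 and 0.495), and with processed signals it was 0.561 at 25 mg/kg/day (limma adjusted p = 0.784).

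*Ppm1d*, the p53-induced phosphatase, had the member probe with the smallest p, and its order of means followed the dose. The log2 ratios of A_51_P131526 were -0.64, -0.62, -0.55, -0.8 and -0.67 in control replicates 1 to 5 and -0.49, -0.28, -0.64, -0.55 and -0.61 at 25 mg/kg/day. They were -0.58, -0.38, -0.36, -0.43 and -0.58 at 50 mg/kg/day and -0.28, -0.51, -0.4, -0.43 and -0.29 at 75 mg/kg/day. Each of the 5 arrays at 75 mg/kg/day lay above all control arrays. At 25, 50 and 75 mg/kg/day 0, 0 and 1 of the 13 member probes were thus free of overlap with controls, where 1.23%, 0.834% and 1.52% of all detected probes were, in one direction or the other. The means were -0.66 ± 0.09, -0.51 ± 0.14, -0.46 ± 0.11 and -0.38 ± 0.1 from control to 75 mg/kg/day (SD, n = 5 each). The differences from control were 0.14 (95% interval -0.04 to 0.32), 0.19 (0.01 to 0.37) and 0.27 (0.09 to 0.45), the last a 1.21-fold higher ratio with an unadjusted p of 0.00509 and an adjusted p of 0.249 in limma. With the scanner software's processed signals the difference at 75 mg/kg/day was 0.464 (limma adjusted p = 0.0774). The other *Ppm1d* probe, A_52_P26155, gave 0.25, 0.11 and 0.28 at the 3 doses with limma adjusted p of at least 0.476, and its groups overlapped (-0.77 to -0.37 in controls, -0.56 to 0.21 at 75 mg/kg/day).

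**Figure D2:**
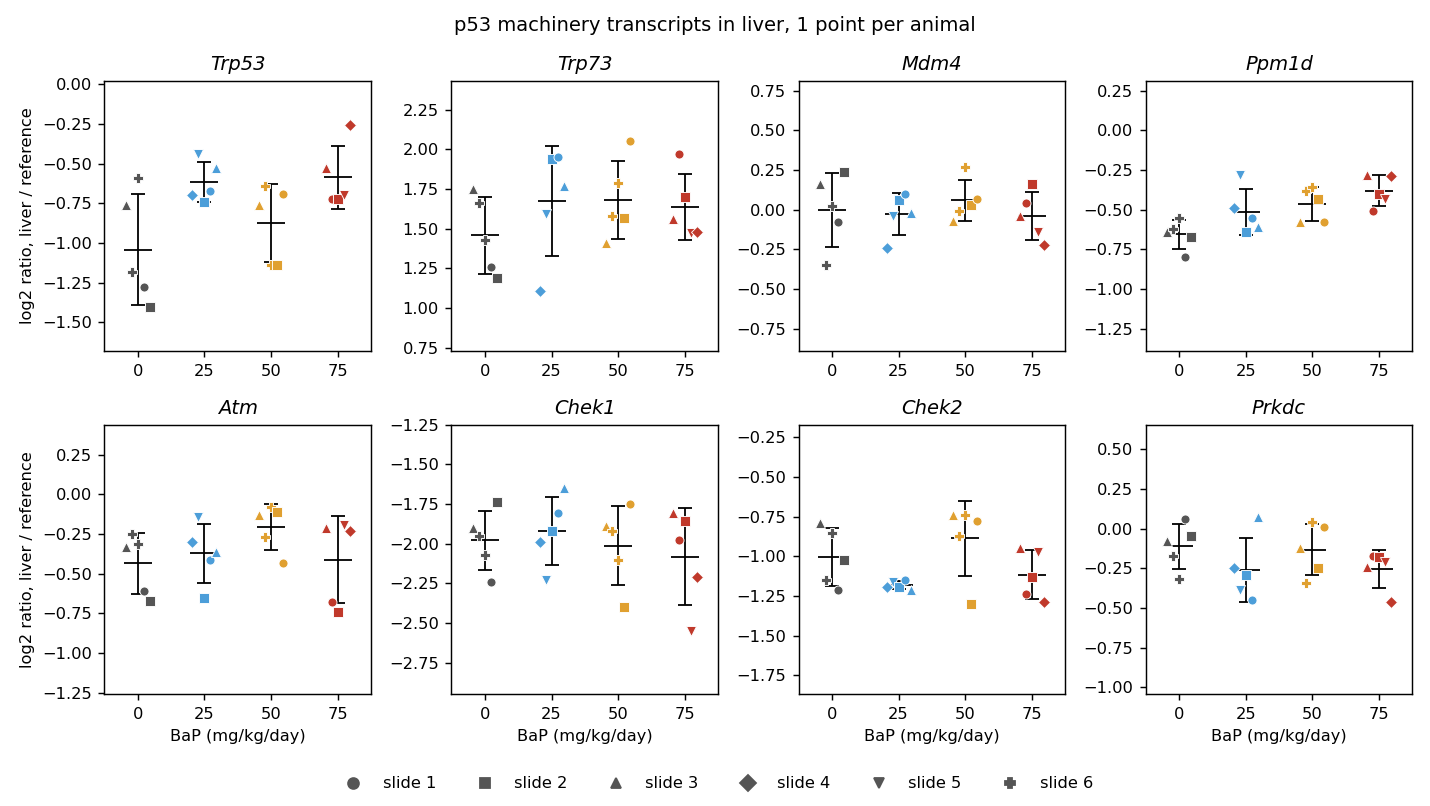
Log2 ratio of liver over reference (y axis, the same span in each panel) by BaP dose (x axis) for the representative probe of each gene. Each symbol is 1 animal and its shape is the slide, and horizontal bars give the mean and the SD (n = 5). The 75 mg/kg/day arrays of *Ppm1d* (-0.51 to -0.28) sit above the control arrays (-0.8 to -0.55), and in the other 7 panels the 75 mg/kg/day and control arrays overlap.

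Among the damage kinases, *Atm*, the kinase activated at double-strand breaks, was measured by 1 probe in 10 spots, well above background on 2 control arrays, 5 arrays at 25, 4 at 50 and 5 at 75 mg/kg/day. Its log2 ratios were -0.33, -0.25, -0.31, -0.61 and -0.67 in controls and -0.3, -0.14, -0.65, -0.41 and -0.36 at 25 mg/kg/day. They were -0.13, -0.27, -0.08, -0.11 and -0.43 at 50 mg/kg/day and -0.21, -0.68, -0.74, -0.19 and -0.23 at 75 mg/kg/day. The 75 mg/kg/day group held both the lowest array (replicate 18) and 3 arrays above every control. The differences were 0.06 (95% interval -0.21 to 0.33), 0.23 (-0.04 to 0.5) and 0.03 (-0.24 to 0.3) at 25, 50 and 75 mg/kg/day, and the smallest limma adjusted p was 0.781, at 50 mg/kg/day.

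*Prkdc*, the catalytic subunit of DNA-PK, which acts in the joining of broken ends, was also measured in 10 spots. The log2 ratios were -0.08, -0.17, -0.32, 0.06 and -0.05 in controls and -0.25, -0.39, -0.29, -0.45 and 0.07 at 25 mg/kg/day. The next dose, 50 mg/kg/day, gave -0.12, -0.34, 0.04, -0.25 and 0.01, and the highest dose gave -0.24, -0.17, -0.18, -0.21 and -0.46. Replicate 20 was the lowest of its group and of all 20 arrays, and the other arrays at 75 mg/kg/day lay within the control range. The mean was lower than the control mean at each dose, by -0.15 (95% interval -0.38 to 0.07), -0.02 (-0.25 to 0.2) and -0.14 (-0.37 to 0.08) on the log2 scale, with limma adjusted p of 0.734, 0.981 and 0.654.

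*Chek1*, the checkpoint kinase activated by Atr in dividing cells, was faint in liver. Its brighter probe, A_51_P326499, reached a signal well above background on 0 of 5 arrays in controls, 4 of 5 at 25 mg/kg/day and 2 of 5 at each higher dose. The log2 ratios were -1.9, -1.95, -2.07, -2.24 and -1.74 in controls and -1.99, -2.23, -1.92, -1.81 and -1.65 at 25 mg/kg/day. They were -1.89, -1.92, -2.1, -2.4 and -1.75 at 50 mg/kg/day and -1.81, -1.98, -1.86, -2.55 and -2.21 at 75 mg/kg/day. Replicates 14 and 19 were the lowest arrays, and the 4 groups overlapped. The measured differences were 0.06 (95% interval -0.25 to 0.37), -0.04 (-0.35 to 0.27) and -0.1 (-0.41 to 0.21), with limma adjusted p of at least 0.84. Since no control array was well above background, the control level in liver was only bounded from above. With the scanner software's processed signals the differences were 0.862 at 25, 0.175 at 50 and 0.679 at 75 mg/kg/day, of which the last 2 changed sign, and limma adjusted p was at least 0.634. The second probe, A_51_P326502, gave 0.05, 0.08 and -0.08. Replicate 14 was low on it too (-2.31, against -1.53 to -1.48 in the other 4 arrays at 50 mg/kg/day), and without that array the difference at 50 mg/kg/day was 0.239.

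*Chek2*, the checkpoint kinase activated by Atm, was close to background, well above it on 1 control array, 3 arrays at 25, 2 at 50 and 3 at 75 mg/kg/day. The log2 ratios of A_51_P137111 were -0.79, -1.15, -0.85, -1.21 and -1.02 in controls and -1.19, -1.16, -1.19, -1.15 and -1.21 at 25 mg/kg/day. They were -0.74, -0.87, -0.74, -1.3 and -0.78 at 50 mg/kg/day and -0.95, -1.24, -1.13, -0.97 and -1.29 at 75 mg/kg/day. The 25 mg/kg/day arrays lay within 0.06 of one another, replicate 14 was the lowest of all, and the groups overlapped. The differences from control were -0.17 (95% interval -0.41 to 0.06), 0.12 (-0.11 to 0.35) and -0.11 (-0.34 to 0.12), with limma adjusted p of 0.706, 0.869 and 0.746. The first and the last changed sign, to 0.015 and 0.082, when the liver channel was used alone. Between the doses, the 50 mg/kg/day mean exceeded that at 25 mg/kg/day by 0.29 (0.06 to 0.53), with an unadjusted p of 0.0158 and an adjusted p of 0.509 in limma. Without replicate 14 the difference at 50 mg/kg/day was 0.223 from control (limma adjusted p = 0.98). From 25 mg/kg/day it was then 0.4, with an unadjusted p of 0.000673 and an adjusted p of 0.6 in limma. Replicate 14 was left out of that contrast after the data had been seen. The second *Chek2* probe, A_52_P117090, did not pass the detection rule and was not well above background on any array.

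Slide took a like share of the spread in these probes and in the array as a whole. The median share of variance between slides was 41% over the 13 member probes and 40.3% over all 27202 detected probes, and the share between dose groups was 18.7% and 15.4%. On slides 1, 2 and 3 the brighter *Trp53* probe was higher at 75 mg/kg/day than in the control of the same slide by 0.55, 0.68 and 0.23, and at 25 mg/kg/day by 0.61, 0.67 and 0.24. At 50 mg/kg/day the differences on these slides were 0.59, 0.26 and 0. *Ppm1d* (A_51_P131526) was higher at 75 mg/kg/day on each of these slides, by 0.29, 0.27 and 0.36. The other slides were less uniform. From 25 to 75 mg/kg/day *Trp53* differed by 0.44 on slide 4 and -0.26 on slide 5, and *Ppm1d* by 0.2 and -0.15. On slide 6 the 50 mg/kg/day mean differed from the control mean by -0.01 for *Trp53* and 0.21 for *Ppm1d*. On slide 3 the control exceeded the 75 mg/kg/day array for *Trp73* (-0.19), which was higher by 0.71 and 0.52 on slides 1 and 2. With slide as a fixed block the differences at 75 mg/kg/day were 0.452 for the brighter *Trp53* probe (limma adjusted p = 0.243) and 0.276 for *Ppm1d* (limma adjusted p = 0.212). For *Trp73* the same block raised the estimates to 0.405 at 25 and 0.372 at 75 mg/kg/day, with unadjusted p of 0.0195 and 0.03 and adjusted p of 0.421 and 0.321 in limma. Each dose group sat mostly at 1 position on its slides, and dose and position cannot be told apart.

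**Figure D3:**
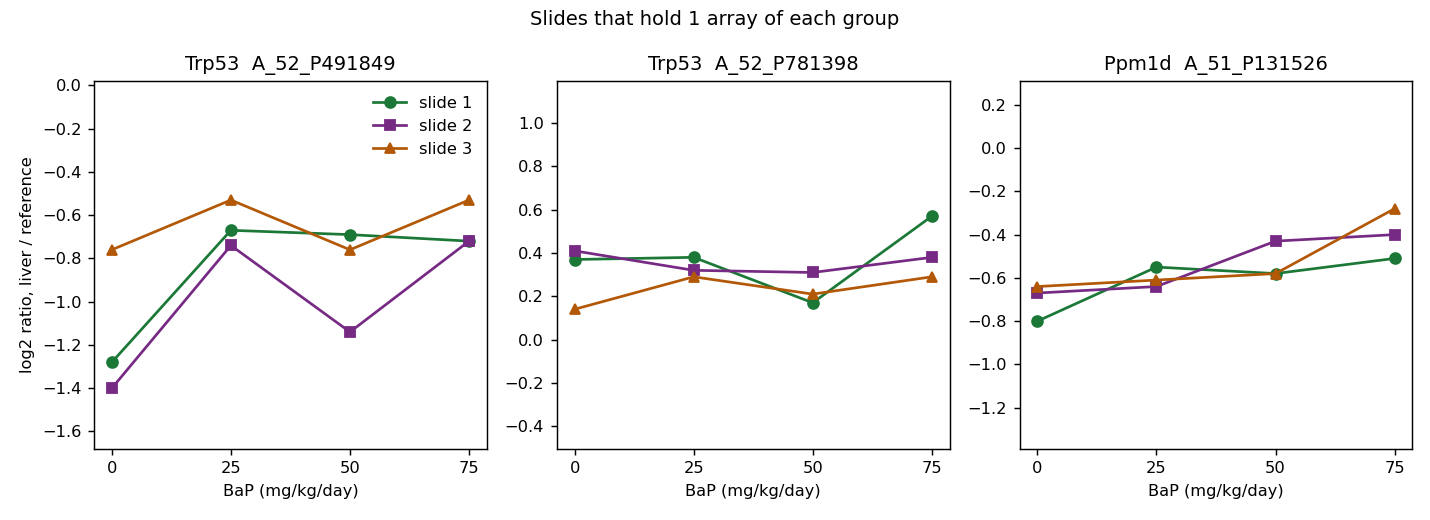
Log2 ratio of liver over reference (y axis) by BaP dose (x axis) on the 3 slides that hold 1 array of each group, with a line per slide. The brighter *Trp53* probe (left) is higher at 25 mg/kg/day than in the control of each slide by 0.24 to 0.67, the other *Trp53* probe (middle) stays between 0.14 and 0.57, and *Ppm1d* (right) is higher at 75 mg/kg/day by 0.27 to 0.36.

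The order of the 4 group means differed from gene to gene. The control mean was the lowest for *Trp53* (brighter probe), *Trp73*, *Ppm1d* and *Atm*, and the highest for *Prkdc*. The 25 mg/kg/day mean was the highest for *Chek1* and the lowest for *Chek2* and *Prkdc*, and the 50 mg/kg/day mean was the highest for *Trp73*, *Mdm4*, *Atm* and *Chek2*. No step in any of these orders passed after adjustment over all detected probes. Over 6 contrasts between the groups and 13 probes (78 tests), 0 had a limma adjusted p under 0.05. Of these tests, 6 had an unadjusted limma p under 0.05, and the smallest adjusted p was 0.249. With dose as a number in limma, 0 of 13 member probes had a trend, against 0.158% of all probes. The steepest were the brighter *Trp53* probe, 0.044 per 10 mg/kg/day (SE 0.021, adjusted p = 0.571), and *Ppm1d*, 0.035 (SE 0.011, unadjusted p = 0.00354, adjusted p = 0.285). For a difference anywhere among the 4 groups 0 of 13 passed, against 0.0809% of all probes, and the smallest unadjusted p was 0.0171, for *Trp53*.

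Further genes of the same pathway did not pass either. In 7 lists of partners and related genes, 0 genes had an adjusted p under 0.05 in limma at any dose, and the 2 genes with the smallest unadjusted p at 75 mg/kg/day are given for each. Among regulators of p53 level, 13 of 15 genes were detected, with a median log2 difference of -0.03 at 75 mg/kg/day against 0 over all detected genes. *Mdm2*, the ligase that marks p53 for destruction, differed by 0.39 on its representative probe (SE 0.16, adjusted p = 0.364) and by 0.01 on another (SE 0.13, adjusted p = 0.993), and *Ep300*, an acetyltransferase coactivator, by 0.27 (SE 0.14, adjusted p = 0.484). *Trp63*, the third gene of the family, did not pass the detection rule.

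On the Atm side, where breaks are sensed and marked, 9 of 10 genes were detected, with a median of -0.1. *Rnf8*, a ubiquitin ligase recruited to breaks, was lower by -0.19 (SE 0.081, adjusted p = 0.394) with all 5 arrays below every control. At 75 mg/kg/day 1.52% of all detected probes did not overlap controls, in one direction or the other. *H2ax*, the histone that Atm phosphorylates, differed by 0.34 (SE 0.21, adjusted p = 0.572). On the Atr side all 13 genes were detected, with a median of 0. *Rpa1*, which coats single-stranded DNA, differed by 0.21 (SE 0.12) and *Atrip*, the partner of Atr, by 0.1 (SE 0.11), with limma adjusted p of 0.526 and 0.775.

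On the DNA-PK side all 6 partners were detected, with a median of 0.12 at 75 mg/kg/day. *Nhej1*, a ligation cofactor, differed by 0.42 (SE 0.13, adjusted p = 0.221) and *Dclre1c*, the Artemis nuclease, by 0.56 (SE 0.2, adjusted p = 0.319), and each had 4 of 5 arrays above every control. Of the other 4, *Xrcc5* (Ku80) differed by 0.26 and *Xrcc4* by -0.31, with unadjusted p of 0.0439 and 0.0194 in limma, genes chosen after their values were seen. Thus 4 of 6 had an unadjusted p under 0.05, 3 higher and 1 lower, where 11.2% of all detected probes had one. After adjustment 0 of 6 passed. All 5 *Xrcc4* arrays at 75 mg/kg/day lay below every control, where 1.52% of all detected probes did not overlap controls.

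Among the substrates of the checkpoint kinases and cell cycle brakes, 6 of 7 were detected, with a median of 0.03. *Cdc25c* and *Cdc25a*, phosphatases that drive the cell cycle, differed by -0.22 and 0.13 (SE 0.14 and 0.12). Among the related kinases of this family and their chaperones, 7 of 8 were detected, with a median of -0.02, and *Telo2* and *Tti1*, which help these kinases fold, differed by 0.13 and 0.1 (SE 0.11 each). Among proliferation markers, 11 of 12 were detected, with a median of 0.06, and the replication helicase subunits *Mcm3* and *Mcm6* differed by -0.22 and 0.33 (SE 0.12 and 0.25). Limma adjusted p in these 3 lists was at least 0.496.

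The transcripts that p53 switches on gave a different count at 75 mg/kg/day. This list was drawn up with their behavior in these arrays known, so its direction is not independent evidence. Of its 9 detected genes (10 listed), 3 rose at 75 mg/kg/day, 0 fell, and 0 passed at 25 or 50 mg/kg/day, with a median log2 difference of 0.55 at 75 mg/kg/day. Of all detected probes 0.132% rose and 0.00368% fell at that dose. *Cdkn1a*, the cell cycle inhibitor p21, was -2.25, -1.89, -1.66, -1.67 and -1.55 in controls and -1.15, 0.27, -0.15, 0.12 and -0.11 at 75 mg/kg/day. That was a 3.03-fold rise (log2 1.6, SE 0.22, limma adjusted p = 0.00146). All 5 of its arrays lay above every control, where 1.52% of all detected probes did not overlap controls. *Phlda3*, an inhibitor of Akt signaling, rose 1.92-fold (log2 0.94, SE 0.16, adjusted p = 0.00883) and *Zmat3*, an RNA-binding protein, 1.7-fold (log2 0.76, SE 0.13, adjusted p = 0.0108). *Ccng1* (1.04), *Btg2* (0.55), *Bax* (0.4), *Mdm2* (0.39, representative probe), *Sesn2* (0.14) and *Pmaip1* (-0.2) had limma adjusted p between 0.131 and 0.76, and *Eda2r* did not pass the detection rule.

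Whether the output moved more than *Trp53* itself was tested within arrays, against the brighter *Trp53* probe alone. The other *Trp53* probe differed from control by 0 at 75 mg/kg/day, and the output was not tested against it. The change of *Cdkn1a* at 75 mg/kg/day exceeded that of the brighter *Trp53* probe by 1.15 on the log2 scale, with an exact two-sided permutation p of 0.0238 and of 0.214 after adjustment over the 9 output transcripts. For *Phlda3* and *Zmat3* the excess was 0.49 and 0.31, with exact permutation p of 0.159 and 0.278. For *Ccng1* and *Btg2* it was 0.58 and 0.09 (exact permutation p of 0.167 and 0.667). The difference went the other way for *Bax* (-0.06), *Mdm2* (-0.07), *Sesn2* (-0.32) and *Pmaip1* (-0.66). Their exact permutation p were 0.873, 0.825, 0.0952 and 0.0635. With 5 arrays against 5 the smallest possible p is 0.00794, or 0.0714 for a single pair adjusted over 9, so no single pair could have passed.

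**Figure D4:**
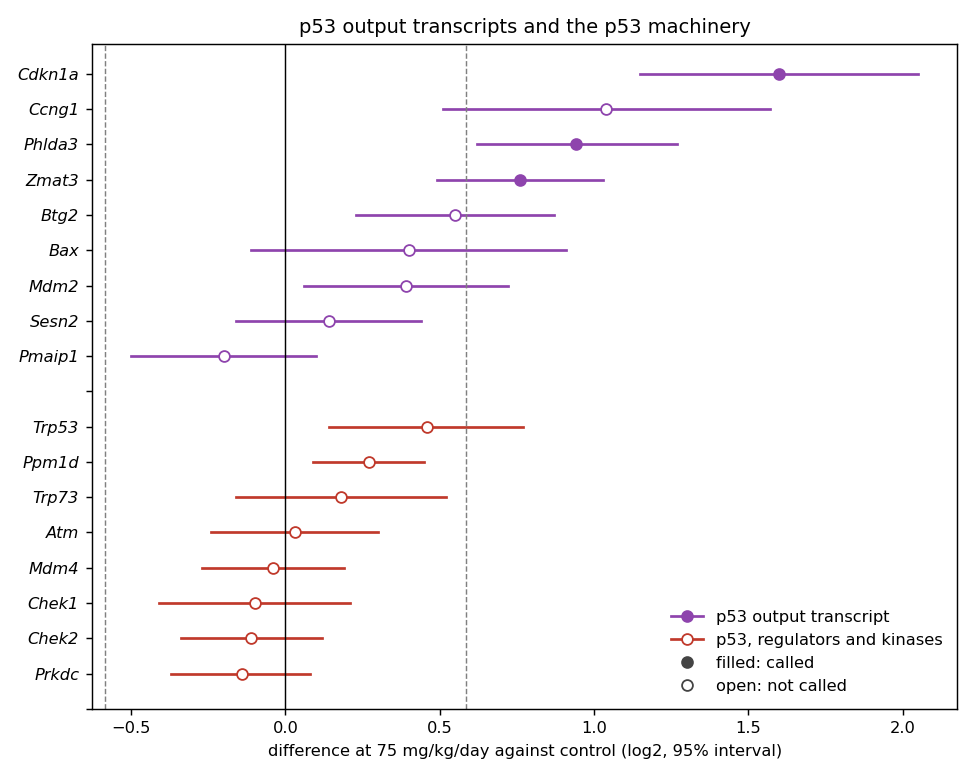
Log2 difference at 75 mg/kg/day against control (x axis) with 95% intervals from limma for the 9 detected p53 output transcripts (top) and the representative probes of the 8 machinery genes (bottom). Filled points were called and dashed lines mark a 1.5-fold change. *Cdkn1a* (1.6), *Phlda3* (0.94) and *Zmat3* (0.76) are the filled points, and the machinery genes lie between -0.14 and 0.46.

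From animal to animal, pairs of machinery genes ranged from inversely to positively related. Over the 20 arrays the log2 ratios of their representative probes had pairwise Pearson r between -0.55 and 0.53 (28 pairs, median 0.06), and between -0.63 and 0.61 once slide means were removed. The lowest pair was *Trp53* with *Prkdc* on both scales, and the highest was *Trp53* with *Ppm1d* before and *Trp53* with *Trp73* after slide means were removed. These values are descriptions, and arrays of a slide share a hybridization.

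Other transcripts followed each member more closely. The 3 closest of all detected probes were picked for their r over the 20 arrays, which makes r high by selection, and r with slide means removed is the second value in each bracket. For *Trp53* they were *Pi4k2a* (0.92, 0.91), *Apeh* (0.87, 0.84) and the kinase gene *Csnk1a1* (0.87, 0.83), and for *Trp73* *Emilin3* (0.79, 0.77), *Dnase1l2* (0.78, 0.82) and *Ccni* (0.76, 0.97). For *Mdm4* they included *Rbl2* (0.78, 0.78), a relative of the retinoblastoma protein, and *Prpf38a* (0.74, 0.62). For *Ppm1d* they were *Junb* (0.85, 0.84), a subunit of the AP-1 transcription factor, *Gpr146* (0.84, 0.83) and *Lpin1* (0.82, 0.77).

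Among the kinases, the closest to *Atm* were *Lcp1* (0.9, 0.8), an actin-bundling protein of leukocytes, *Ndel1* (0.86, 0.89) and the class I histocompatibility gene *H2-Q1* (0.86, 0.79). For *Prkdc* they were *Ankrd46* (0.85, 0.85), *Elp2* (0.85, 0.87) and *Pigh* (0.84, 0.87). For *Chek1* they were *Gask1b* (0.86, 0.74), *Cenpp* (0.81, 0.72), a centromere protein, and *Cip2a* (0.77, 0.54), and for *Chek2* *Kctd10* (0.83, 0.74), *Ybx3* (0.83, 0.78) and *Spats2* (0.82, 0.76).

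Markers of other liver cells did not pass the threshold either. Of the detected markers of hepatocytes (7), Kupffer cells (5), endothelial cells (5), T cells (4), B cells (3) and neutrophils (3), 0 were called at any dose. The mean log2 ratio of each list overlapped between controls and 75 mg/kg/day, at -0.32 to -0.22 and -0.51 to -0.28 for T cell markers, -1.26 to -0.94 and -1.17 to -0.93 for B cell markers, 2.53 to 3.17 and 2.52 to 3.4 for Kupffer cell markers, and 0.52 to 0.92 and 0.52 to 1.41 for neutrophil markers. The endothelial markers had a mean log2 ratio of 2.08 to 2.94 in controls and 2.52 to 3.2 at 75 mg/kg/day, and the hepatocyte markers 4.59 to 5.78 and 5.26 to 5.6. From the lowest to the highest dose, the median log2 difference from control was 0.33, 0.27 and 0.4 for hepatocyte markers. Endothelial markers gave 0.33, 0.24 and 0.28, and neutrophil markers 0.18, 0.06 and 0.39. Kupffer cell markers gave 0.17, 0.12 and 0.08, T cell markers -0.11, -0.04 and -0.1, and B cell markers 0.01, -0.02 and 0.02. In the same order the brighter *Trp53* probe differed by 0.43, 0.17 and 0.46. At 25 and 75 mg/kg/day the median of each of these lists was below the *Trp53* difference. At 50 mg/kg/day the hepatocyte and endothelial medians were above it. The part of any of these cell types in the values of the p53 machinery was not tested.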

How the data were processed

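Two-color array data of 20 livers, 5 per group, were used. The intensities are the median spot and background signals deposited by the authors for 45018 features per array, without normalization, from Feature Extraction (header version 10.1.1.1). Marks for outlier, saturated and well-above-background spots (other scores per spot) came from the same software, per the file headers, and 0 spots were saturated. The log2 ratios deposited by the authors, normalized by LOWESS, served as an alternative (r of 0.994 to 0.996 with those used here). Columns of per-sample values left unused numbered 0.

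Background was corrected by normexp with an offset of 50, the ratios of each array were then normalized by loess, and spots of the same probe were averaged after outlier spots had been left out (41174 probes). A probe was taken as detected when its liver signal exceeded the mean (5% trim) plus 3 trimmed SDs of 153 negative control spots in 4 of 5 arrays of a group (27202 probes). Probes were named through RefSeq accessions (23374 probes), and the detected probe of highest mean intensity represents a gene. 1 limma model of all 20 arrays gave the contrasts, with Benjamini-Hochberg adjustment over all detected probes. MAANOVA was not used here, and the study left out 1 array that it does not name, whereas all were kept. R 4.3.3, limma 3.58.1, Python 3.11.15 and matplotlib 3.10.9 were used, and the fit was tested on simulated data. The series description gives a slightly different lowest dose from the sample labels, which were followed.

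The members and the gene lists were chosen with earlier results of these data known. Genes named are all members, all p53 output transcripts, from each other list those past an adjusted p of 0.05 or else the 2 with the smallest unadjusted p at 75 mg/kg/day, and the 3 closest probes by r, of which 1 is not reported here. The alternatives tried were no background correction, processed signals, the authors' ratios, the liver channel alone, other filters, slide as a block, other variance models, each dose alone with controls, adjustment over the 3 contrasts, and each array left out. The use of slides 1 to 3 alone, the *Chek2* contrast of 50 with 25 mg/kg/day without replicate 14, and the exact permutation tests were added after the data had been seen.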

Additional observations from a re-analysis of the deposited data

Results flagged for a closer look

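In 4 of 91 groups of 5 arrays (14 member probes and 9 output transcripts), 1 array stood apart by a gap over 0.71 of the group's range, a check by which chance marks about 1 in 20 groups. In the 50 mg/kg/day group replicate 14 was the lowest for *Chek1* (A_51_P326502), at -2.31 against -1.53 to -1.48 in the other 4 arrays, and for *Chek2* (A_51_P137111), at -1.3 against -0.87 to -0.74. *Prkdc* was lowest in replicate 20 at 75 mg/kg/day, at -0.46 against -0.24 to -0.17. *Btg2* was highest in replicate 7 at 25 mg/kg/day, at -1.5 against -2.04 to -1.93.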

How the results depend on the processing

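The count of members called was 0 at each dose, for the trend over dose and for a difference among the 4 groups, and it stayed at 0 in each of the 13 other settings that applied to it and with each of the 20 arrays left out. At 25 and 50 mg/kg/day 0 of all 27202 detected probes were called in the main fit. A count of 0 at those doses therefore does not set the members apart. No paired analysis was possible because the groups share no replicate numbers, and slide, which holds arrays of several groups, was used as a block instead. Between 10 and 14 member probes were tested, and the lowest adjusted p in any setting was 0.0774 (*Ppm1d* at 75 mg/kg/day, processed signals). Of 1239 recomputed member differences 1170 kept their sign, and 20 of 39 differences kept it throughout. The 69 of opposite sign had unadjusted p of at least 0.18 and belonged to differences of at most 0.179 in size, and the cause was not tested.

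With the liver channel alone the log2 differences of opposite sign were -0.108 for *Trp53* (A_52_P491849) at 50, -0.006 for *Trp73* at 75, -0.003 for *Mdm4* (A_51_P176954) at 50, 0.022 and 0.016 for *Mdm4* (A_52_P485905) at 25 and 75, 0.069 and 0.082 for *Chek1* (A_51_P326499) at 50 and 75, 0.054 for *Chek1* (A_51_P326502) at 75, 0.015 and 0.082 for *Chek2* at 25 and 75, and 0.088 for *Prkdc* at 50 mg/kg/day. With processed signals they were 0.177 and 0.309 for *Mdm4* (A_52_P485905) at 25 and 75, 0.175 and 0.679 for *Chek1* (A_51_P326499) at 50 and 75, 0.162 for *Chek1* (A_51_P326502) at 75, and 0.012 and 0.119 for *Chek2* at 25 and 75. Without background correction they were 0.019 for *Trp53* (A_52_P781398) and 0.003 for *Mdm4* (A_51_P176954) at 75, -0.077 for *Chek1* (A_51_P326499) at 25, and -0.072 and -0.008 for *Chek1* (A_51_P326502) at 25 and 50. With the authors' log2 ratios they were -0.017 for *Atm* at 75, and -0.073 and -0.061 for the *Chek1* probes A_51_P326499 and A_51_P326502 at 25. Slide as a fixed block gave 0.058 and 0.091 for *Trp53* (A_52_P781398) and 0.024 and 0.013 for *Mdm4* (A_51_P176954) at 25 and 75, and -0.03 for *Atm*, 0.05 for *Chek1* (A_51_P326499) and 0.055 for *Chek1* (A_51_P326502) at 75. Slides 1 to 3 alone, with slide as a fixed block, a setting chosen after seeing the data, gave 0.024 and 0.104 for *Trp53* (A_52_P781398) at 25 and 75, -0.097 for *Mdm4* (A_51_P176954) at 50, -0.004 for *Atm* and 0.076 for *Chek1* (A_51_P326499) at 75, and -0.063 for *Chek1* (A_51_P326502) at 50. For *Trp53* (A_52_P781398) at 75, array weights gave 0.043 and slide as a random block 0.027.

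With single arrays left out, differences that changed sign ranged from -0.068 to 0.044 for *Trp53* (A_52_P781398) at 75, from -0.115 to 0.034, -0.027 to 0.121 and -0.126 to 0.023 for *Mdm4* (A_51_P176954) at 25, 50 and 75, and from -0.154 to 0.016 for *Mdm4* (A_52_P485905) at 25. They ranged from -0.032 to 0.11 for *Atm* at 75, from -0.009 to 0.134, -0.102 to 0.061 and -0.17 to 0.015 for *Chek1* (A_51_P326499) at 25, 50 and 75, from -0.005 to 0.109 for *Chek1* (A_51_P326502) at 25, and from -0.072 to 0.032 for *Prkdc* at 50 mg/kg/day. Without a change of sign, processed signals raised *Ppm1d* (A_51_P131526) from 0.14, 0.19 and 0.27 to 0.308, 0.311 and 0.464 at 25, 50 and 75, and *Chek1* (A_51_P326499) at 25 from 0.06 to 0.862, and array weights raised *Trp73* to 0.326 at 25 and 0.318 at 75 mg/kg/day. A p that misses the threshold does not show that values did not differ, and signals near background limit *Chek1*, *Chek2* and the dimmer *Mdm4* probes.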
